A study of Mus musculus with 6 samples.

Results

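Axon-to-Schwann cell signaling for myelination was followed through 9 genes of the 41605 counted in single cells of the mouse sciatic nerve. The genes were taken by symbol: *Nrg1*, *Erbb2*, *Erbb3*, *Adam17*, *Bace1*, *Adgrg6*, *Lgi4*, *Adam22* and *Prnp*. They were read in 3 libraries from postnatal day 1 (P1) and 3 libraries from postnatal day 60 (P60). All mice were on the C57bl/6J background and carried P0Cre, the ReYFP reporter and βAct-DsRed; P0Cre switches on eYFP in Schwann cells (SCs), while DsRed marks all cells. Each suspension pooled mice of both sexes, and DsRed-positive cells were sorted and captured with the 10x Genomics droplet assay, which counts RNA molecules by unique molecular identifiers (UMIs) near their 3′ ends. At P1 part of the eYFP-positive SCs were removed in the sort, so the P1 share of SCs is a property of the sort. Age and capture batch cannot be told apart, because no library held cells of both ages.

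Neuregulin 1 (*Nrg1*) is the growth factor by which axons instruct SCs. Its receptor is a dimer of ErbB3, which binds the ligand, and ErbB2, which carries the active kinase, and the transmembrane ligand is cut by the proteases BACE1, which promotes myelination, and ADAM17 (TACE), which counters it. *Adgrg6* encodes Gpr126, an adhesion receptor that raises cyclic AMP in SCs and is needed for the step from promyelinating to myelinating cell, and prion protein (*Prnp*) is one of its ligands in the nerve. SCs also secrete Lgi4, which acts through the receptor ADAM22 on axons.

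After cells with 500 to 5000 genes were kept, the libraries held 3495, 4197 and 4043 cells at P1 and 3435, 4586 and 4581 at P60, with a median of 6077 to 6840 UMIs per cell at P1 and 3627 to 5561 at P60. P60 replicate 3 was the shallowest, and 16.2% of its cells had over 10% mitochondrial counts, against 2.97% and 4.84% in the other P60 libraries and 9.56% to 13.6% at P1. Clusters were named from marker genes without the 9 genes: 3095 SCs at P1 and 361 at P60, endoneurial fibroblasts (1334 and 863), epineurial cells (1968 and 4531), endothelial cells (726 and 1865), mural cells, that is pericytes and vascular smooth muscle together (601 and 843), and immune cells (889 and 1390). Perineurial cells took a name only at P60 (2424 cells), and 2509 P1 fibroblasts took no subtype. Names stand for cells that are like a class by these markers. No cluster carried the markers of neurons, and the summed level of 6 neuron markers lay between 0 and 39.8 CPM (UMIs per 1000000 UMIs) over all classes and libraries. Of the cell barcodes, 344 occurred in more than 1 library.

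A level is given here as CPM, the UMIs of a gene per 1000000 UMIs of all cells of a class in 1 library, and as mean ± SD over the 3 libraries of an age. Levels were compared within a gene and not between genes. SC sums held 5950001 to 6987897 UMIs per library at P1 and 252557 to 427048 at P60, so 1 UMI weighed far more in a P60 SC sum. Tests were edgeR quasi-likelihood tests on the UMI sums per library, with p-values adjusted over all genes tested (Benjamini-Hochberg) and a call at an adjusted p below 0.05. The labels number separate biological replicates of pooled mice.

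*Nrg1* (GRCm38, chromosome 8, 31814551 to 32884029, minus strand) was barely detected in the cells of the nerve. Over all cells of a library, 11, 10 and 13 *Nrg1* UMIs were counted at P1 and 0, 2 and 1 at P60. The few P1 molecules lay mostly in SCs (4, 1 and 9 UMIs in replicates 1, 2 and 3) and epineurial cells (5, 4 and 3 UMIs), and of the 14 in SCs 7 fell in myelinating and 0 in immature cells. In P60 SCs no *Nrg1* UMI was found in any library, which allows a level of up to 3.13 CPM over the 3 libraries, a limit that covers counting error only. The P1 mean in SCs was 0.703 ± 0.570 CPM, below that limit, so a difference between the ages in SCs was not detectable at this depth. *Nrg1* passed the filter on low counts in none of the tests, and the 3′ counts do not tell its isoforms apart. Axonal *Nrg1* is made by neurons whose cell bodies lie outside the nerve, and no cluster was named as neurons.

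The ErbB3 receptor was concentrated in SCs at both ages. *Erbb3* (chromosome 10, 128567523 to 128589652, minus strand) stood at 99.5, 101.7 and 97.9 CPM in P1 SCs of replicates 1, 2 and 3, and at 83.2, 119.0 and 175.6 CPM in those of P60. In other P1 classes its mean ran from 2.13 ± 0.330 CPM in endoneurial cells to 9.11 ± 3.00 in endothelial cells. No library of another class came near those of SCs at either age. Against the mean of the other classes *Erbb3* was 19.2-fold higher in SCs at P1 (log2 4.26 ± 0.09 SE, edgeR adjusted p = 1.01e-36) and 61.7-fold higher at P60 (log2 5.95 ± 0.26, edgeR adjusted p = 1.00e-17). The other classes included perineurial cells only at P60, so such folds, here and for the other genes, are not compared between the ages. At P60 *Erbb3* had 3 UMIs in mural and 4 in endoneurial cells.

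Between the ages *Erbb3* in SCs did not pass the test (99.7 ± 1.91 CPM at P1, 126 ± 46.6 at P60, log2 0.35 ± 0.18 SE, edgeR adjusted p = 0.140). The P60 libraries spread on both sides of the P1 range. The highest, replicate 3, also held the largest share of non-myelinating SCs, 53.2% against 38.7% and 31%, and without it the log2 change was -0.10. The part of the state mix in this value was not tested. In endothelial cells *Erbb3* fell from 9.11 ± 3.00 to 1.20 ± 0.0729 CPM (log2 -2.87 ± 0.39, edgeR adjusted p = 1.31e-04), and in immune cells from 6.49 ± 0.610 to 2.88 ± 1.30 CPM (log2 -1.03 ± 0.37, edgeR adjusted p = 0.0469), a call that was lost in 10 of 14 other settings, among them each of the removals of a single library except P60 replicate 3 (log2 -1.13 to -0.82). SC transcripts were found at a low level in every class: *Mbp*, which encodes myelin basic protein, stood in other classes at 0.757% to 2.79% of its SC level at P1 and at 0.124% to 1.47% at P60, and *Sox10*, an SC transcription factor gene, at 1.03% to 5.16% and 0% to 1.29%. *Erbb3* stood at 1.76% to 11.1% of its SC level at P1 and at 0% to 4.33% at P60, so it stood lower at P60, as these SC genes did. What part free RNA had in the non-SC values was not tested.

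*Erbb2* (chromosome 11, 98412470 to 98437716, plus strand), which encodes the kinase partner, was spread over more classes. Its level in P1 SCs was 31.8, 27.0 and 31.2 CPM, and in P60 SCs 39.6, 21.6 and 49.2 CPM. The other named P1 classes lay at 11.9 to 12.2 CPM in the mean, except immune cells (3.12 ± 0.764 CPM). The 2509 P1 fibroblasts without a subtype entered no class comparison. All P1 fibroblasts joined had 16.0 ± 0.138 CPM, so those without a subtype lay above endoneurial and epineurial cells. At P1 no library of another named class reached the SC range, whereas at P60 perineurial cells, with 17.8, 18.6 and 28.1 CPM, overlapped with it. *Erbb2* was 3.08-fold higher in SCs than in the mean of the other classes at P1 (log2 1.63 ± 0.10, edgeR adjusted p = 4.77e-19) and 3.95-fold higher at P60 (log2 1.98 ± 0.32, edgeR adjusted p = 9.75e-06). Perineurial cells were above the other classes as well (2.47-fold, log2 1.31 ± 0.15, edgeR adjusted p = 1.09e-08). Among the named classes both receptor genes thus had their highest mean in SCs. The age change of *Erbb2* in SCs did not pass the test (log2 0.29 ± 0.28, edgeR adjusted p = 0.438), and without P60 replicate 3 it was -0.12. Of the P60 perineurial clusters, 1 of 489 cells with *Ptch1* and *Slc6a13* among its leading genes had 34.4 ± 10.5 CPM of *Erbb2*, and the other, of 1935 cells led by *Sfrp5* and *Msln*, had 19.5 ± 5.26, with overlapping libraries. The median cell of the first had 11.96% mitochondrial counts and that of the second 3.86%.

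**Figure D1:**
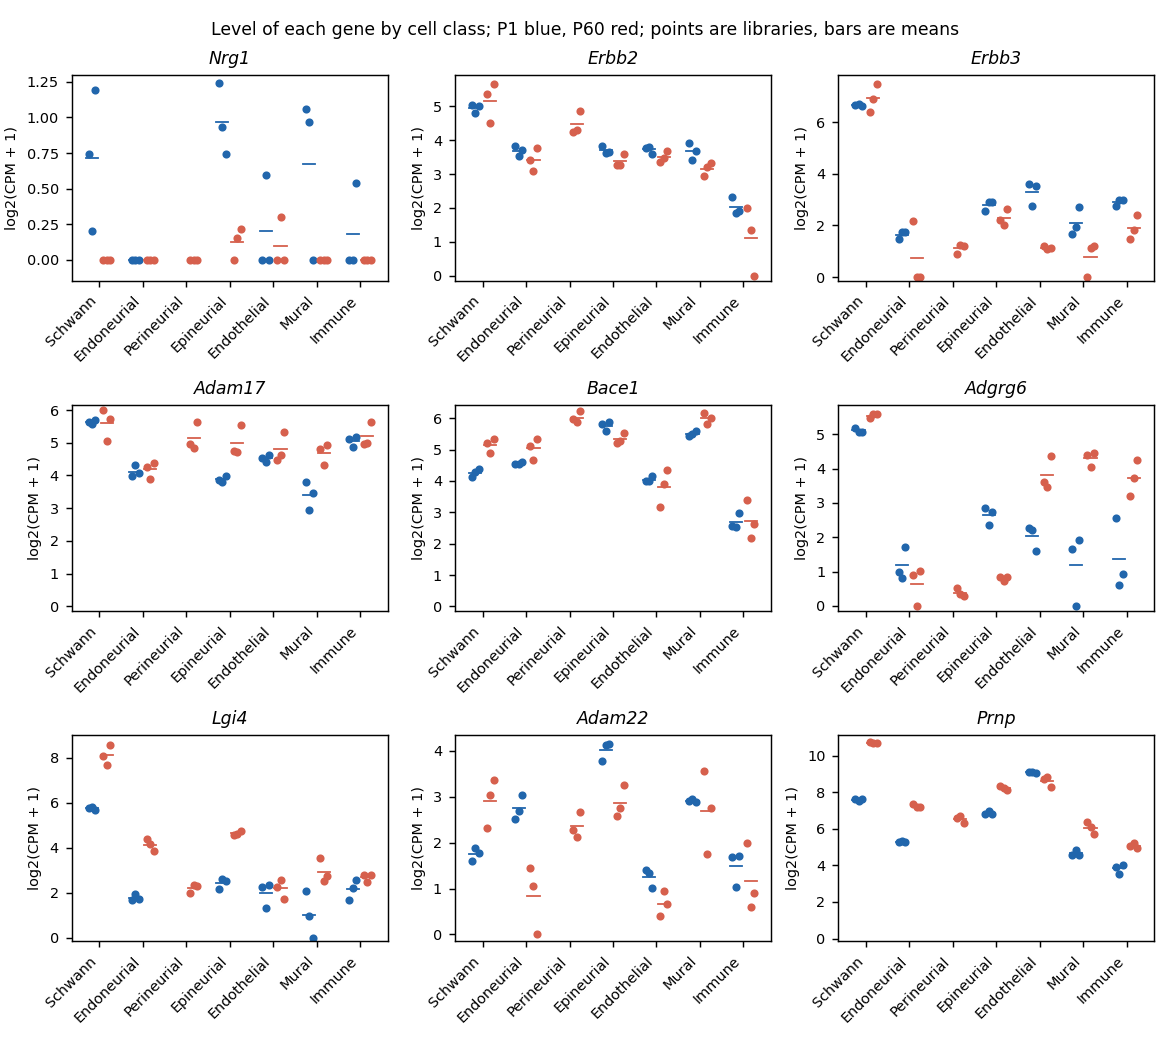
Level of each of the 9 genes as log2(CPM + 1) in each cell class, with P1 libraries in blue, P60 libraries in red and bars at the means of 3 libraries (perineurial cells at P60 only). *Erbb3*, *Adgrg6* and *Lgi4* have their highest points in Schwann cells at both ages, *Prnp* has its highest P1 points in endothelial cells and its highest P60 points in Schwann cells, and *Bace1* has its highest points in fibroblast and mural classes.

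The proteases were found in every class. *Adam17* (chromosome 12, 21323509 to 21373632, minus strand) stood at 48.2, 46.8 and 50.8 CPM in P1 SCs and at 63.4, 32.4 and 51.5 CPM in P60 SCs. Immune cells came next at P1 (32.3 ± 3.43 CPM). The P1 SC libraries lay above those of all other classes, and *Adam17* was 2.65-fold higher in SCs than in their mean (log2 1.40 ± 0.08, edgeR adjusted p = 3.90e-20). At P60 it was not called in SCs (log2 0.46 ± 0.21, edgeR adjusted p = 0.117), except with library-size scaling (log2 0.74, edgeR adjusted p = 0.0121). It rose with age in epineurial cells, from 13.8 ± 0.946 to 32.1 ± 11.4 CPM (log2 1.17 ± 0.23, edgeR adjusted p = 0.00184), and in mural cells, from 9.93 ± 3.15 to 25.1 ± 5.43 CPM (log2 1.5002 ± 0.34, edgeR adjusted p = 0.00569). The age ranges did not overlap in either class. In SCs its change was -0.06 ± 0.22 on the log2 scale and did not pass the test (edgeR adjusted p = 0.869).

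*Bace1* (chromosome 9, 45838580 to 45864399, plus strand), whose product cuts *Nrg1* on the axon, had its highest levels outside SCs. At P1 epineurial cells led with 55.6, 47.2 and 57.7 CPM, followed by mural cells with 42.2, 44.0 and 46.8. The SC libraries had 16.3, 18.4 and 19.7 CPM. *Bace1* was thus 3.39-fold higher in P1 epineurial cells than in the mean of the other classes (log2 1.76 ± 0.08, edgeR adjusted p = 1.35e-22) and 1.25-fold lower in P1 SCs (log2 -0.32 ± 0.10, edgeR adjusted p = 0.00373), the latter lost without P1 replicate 1 (log2 -0.27). At P60 perineurial cells (61.2, 57.8 and 73.9 CPM) and mural cells (71.4, 55.9 and 63.3 CPM) shared the top of the order and overlapped. For perineurial cells the log2 difference from the other classes was 1.37 ± 0.10 (edgeR adjusted p = 8.36e-13), a 2.58-fold difference. In SCs *Bace1* rose with age to 35.6, 28.8 and 39.8 CPM, from 18.2 ± 1.74 to 34.8 ± 5.54 in the mean (log2 0.89 ± 0.28, edgeR adjusted p = 0.0194). These P60 values rest on 9, 8 and 17 UMIs, and the call was lost without P60 replicate 1 (log2 0.77) or without P60 replicate 3 (log2 0.69). It also rose in endoneurial cells (log2 0.61 ± 0.18, edgeR adjusted p = 0.0140) and mural cells (log2 0.64 ± 0.19, edgeR adjusted p = 0.0231) and fell in epineurial cells (log2 -0.48 ± 0.13, edgeR adjusted p = 0.0122). Each of these calls was lost without some single libraries: P1 replicate 1, P60 replicate 1 or P60 replicate 3 in endoneurial cells (log2 0.48 to 0.57), P1 replicate 1 or 3 in epineurial cells (log2 -0.43 and -0.42), and any P1 library or P60 replicate 1 in mural cells (log2 0.59 to 0.65).

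The Gpr126 gene *Adgrg6* (chromosome 10, 14402583 to 14545659, minus strand) had its highest level among the named classes in SCs at both ages. At P60 it was also found in vascular and immune cells, of which 1 mural cluster had a higher mean than SCs, with overlapping libraries. In P1 SCs it stood at 35.6, 32.4 and 32.8 CPM, and in P60 SCs at 43.6, 46.9 and 46.8 CPM. The P60 libraries all lay above those of P1, but the change did not pass the test (log2 0.38 ± 0.22, edgeR adjusted p = 0.190). Against the mean of the other classes *Adgrg6* was 12.9-fold higher in SCs at P1 (log2 3.69 ± 0.15, edgeR adjusted p = 1.18e-24) and 12.5-fold higher at P60 (log2 3.64 ± 0.31, edgeR adjusted p = 5.73e-11).

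Outside SCs *Adgrg6* moved with age in opposite directions. In mural cells it stood at 2.17, 0 and 2.75 CPM at P1 and at 20.2, 15.5 and 21.1 CPM at P60 (log2 3.59 ± 0.53, edgeR adjusted p = 4.06e-04). In endothelial cells the P1 libraries had 3.85, 3.60 and 2.03 CPM and the P60 libraries 11.2, 10.1 and 19.7 CPM (log2 2.10 ± 0.38, edgeR adjusted p = 0.00102). In immune cells it had 4.89, 0.527 and 0.910 CPM at P1 and 8.30, 12.2 and 18.1 CPM at P60 (log2 2.62 ± 0.54, edgeR adjusted p = 0.00254). Every P60 library of these 3 classes lay above every P1 library of the same class. In epineurial cells it fell from 6.27, 4.09 and 5.61 CPM to 0.787, 0.662 and 0.792 CPM (log2 -2.83 ± 0.32, edgeR adjusted p = 4.65e-05). Within the P60 mural class, a cluster of 112 cells led by *Kcnj8* and *Rgs5* had 67.1 ± 35.5 CPM, a cluster of 164 cells led by *Ifitm1* and *Rgs5* had 7.70 ± 3.62, and a cluster of 567 cells led by the smooth muscle gene *Myh11* had 13.7 ± 5.39. Among P60 immune cells, the cluster led by *Pf4* and *C1qc* (940 cells) had 17.2 ± 5.08 CPM and the cluster led by *Lyz1* and *Cd52* (450 cells) 6.34 ± 3.83, with no overlap between their libraries. No test was run between clusters.

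*Prnp* (chromosome 2, 131909928 to 131938429, plus strand), whose product is a Gpr126 ligand, had the largest age change of the 9 genes in SCs. P1 SCs had 200.3, 181.0 and 197.1 CPM, and P60 SCs had 1746, 1622 and 1628 CPM. The rise, from 193 ± 10.3 to 1665 ± 70.0, was 3.04 ± 0.13 on the log2 scale (edgeR adjusted p = 1.05e-10) and far larger than the spread of either age. It was called under all 16 other settings that were run, with a log2 change of 2.89 to 3.24. At P1 the class with the highest level was endothelial, with 549.5, 549.9 and 521.5 CPM, 9.95-fold above the mean of the other classes (log2 3.32 ± 0.05, edgeR adjusted p = 1.96e-40), and SCs were second (3.01-fold, log2 1.59 ± 0.05, edgeR adjusted p = 4.63e-28). At P60 SCs led (11.1-fold, log2 3.48 ± 0.07, edgeR adjusted p = 6.19e-26), and endothelial cells came next with 417.9, 455.6 and 312.1 CPM, without overlap. *Prnp* rose in endoneurial cells from 38.5 ± 0.723 to 152 ± 11.2 CPM (log2 2.07 ± 0.13, edgeR adjusted p = 1.98e-08), in epineurial cells from 117 ± 7.62 to 300.2 ± 20.2 (log2 1.33 ± 0.11, edgeR adjusted p = 4.84e-06), in mural cells (log2 1.54 ± 0.22, edgeR adjusted p = 2.96e-04) and in immune cells (log2 1.35 ± 0.21, edgeR adjusted p = 3.80e-04). In endothelial cells it fell from 540 ± 16.3 to 395 ± 74.4 CPM (log2 -0.44 ± 0.14, edgeR adjusted p = 0.0308), a call that was lost without any 1 of the P1 libraries (log2 -0.48 to -0.43). At P60 the endothelial cluster with *Slco1a4* and *Cldn5* among its leading genes (984 cells) had 507 ± 85.5 CPM and the cluster with *Mmrn1* and *Plvap* among them (830 cells) 166 ± 34.9.

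Since *Prnp* was the member called between the ages in all 6 classes, the 250 bases before its start are shown, from the RefSeq promoter table of GRCm38.p6 (chr2:131909678-131909927, plus strand, no annotated exon). Capitals mark matches on either strand to the GC box (GGGCGG) and the CCAAT box (CCAAT).
Prnp promoter: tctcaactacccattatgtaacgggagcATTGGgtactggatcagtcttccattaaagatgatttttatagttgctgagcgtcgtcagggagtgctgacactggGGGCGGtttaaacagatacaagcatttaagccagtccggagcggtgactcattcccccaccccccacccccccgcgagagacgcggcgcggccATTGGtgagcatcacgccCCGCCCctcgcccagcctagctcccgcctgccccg
The window held 2 GC boxes and 2 CCAAT boxes, and 1 match to TATAAA that is left in lower case; 58.8% of its bases were G or C. Of 32851 promoter windows of this length, 32.7% held a GC box, 33.8% a CCAAT box and 12.4% TATAAA. The SOX letters ACAAAG or ACAATG, found in 25.2% of the windows, did not occur in it. These matches are letters in 1 window and not measured sites. The table held an entry for 5 of the 9 genes.

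*Lgi4* (chromosome 7, 31059342 to 31070935, plus strand), which encodes the secreted SC ligand, had its highest level in SCs and rose with age. P1 SCs had 54.1, 54.6 and 50.2 CPM, and P60 SCs had 269, 205 and 384 CPM. The rise from 53.0 ± 2.39 to 286 ± 90.5 was 2.42 ± 0.17 on the log2 scale (edgeR adjusted p = 3.97e-08), with no overlap and a range of 2.03 to 2.73 under the other settings. The order of the P60 libraries was that of their share of non-myelinating SCs (38.7%, 31% and 53.2%), and the part of the state mix was not tested. *Lgi4* was 17.7-fold higher in SCs than in the mean of the other classes at P1 (log2 4.15 ± 0.12, edgeR adjusted p = 1.68e-30) and 30.9-fold higher at P60 (log2 4.95 ± 0.17, edgeR adjusted p = 1.53e-20). It also rose in endoneurial cells, from 2.25, 2.84 and 2.31 CPM to 19.98, 17.04 and 13.6 CPM (log2 2.86 ± 0.31, edgeR adjusted p = 5.46e-06), and in epineurial cells, from 3.54, 5.22 and 4.71 to 22.7, 23.7 and 26.0 CPM (log2 2.37 ± 0.18, edgeR adjusted p = 2.52e-06). Relative to SCs, *Mbp* went from 0.899% to 0.259% in endoneurial and from 1.72% to 0.247% in epineurial cells, and *Sox10* was lower at P60 in both as well. Of the P60 epineurial clusters, that with *Sbsn* and *Pi16* among its leading genes (1954 cells) had 33.2 ± 4.05 CPM of *Lgi4* and that led by *Cxcl14* and *Cilp* (2577 cells) 15.004 ± 3.83. *Lgi4* overlaps *Fxyd3* on the other strand. *Nrg1*, *Erbb2*, *Adam17*, *Bace1*, *Adgrg6* and *Adam22* overlap genes on the other strand as well. On the same strand *Prnp* overlaps *Prn*, and *Erbb3* and *Adam22* overlap other genes too. Whether the counting used the strand is not given in the sources used here.

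*Adam22* (chromosome 5, 8072352 to 8368160, minus strand), the Lgi4 receptor gene, was mainly counted in fibroblasts at P1. Epineurial cells had 12.8, 16.3 and 16.6 CPM, and SCs had 2.02, 2.70 and 2.43 CPM. The difference from the other classes was 2.48 ± 0.17 on the log2 scale for epineurial cells (edgeR adjusted p = 4.36e-17) and -0.93 ± 0.24 for SCs (edgeR adjusted p = 7.09e-04). The SC call was lost when cells with markers of a second class were left out (log2 -0.57). Fibroblasts without a subtype had *Adam22* too, at 19.1 ± 3.22 CPM in the largest such P1 cluster. With age it fell in endoneurial cells from 5.77 ± 1.24 to 0.934 ± 0.876 CPM (log2 -2.43 ± 0.64, edgeR adjusted p = 0.00671) and in epineurial cells from 15.3 ± 2.12 to 6.41 ± 1.90 CPM (log2 -1.31 ± 0.22, edgeR adjusted p = 6.56e-04). P60 SCs had 3.96, 7.21 and 9.37 CPM, which are 1, 2 and 4 UMIs. Their change of 1.52 ± 0.62 did not pass the edgeR test (adjusted p = 0.0646) and passed that of DESeq2 (log2 1.505, adjusted p = 0.0453). A gene can pass the filter on low counts through the age in which it is high, here P60. The DESeq2 value is therefore not read as a rise.

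Counted over the 9 genes, 3 of the 8 tested were called between the ages in SCs, all higher at P60 (*Bace1*, *Lgi4* and *Prnp*), where 38.2% of all genes tested were called. In endoneurial cells 4 of 6 were called (46.3% of all genes), in epineurial cells 6 of 8 (47.1%), in endothelial cells 3 of 6 (40.1%), in mural cells 4 of 4 (33.9%), and 3 of 6 in immune cells (37.8%). The median log2 change of the genes tested was 0.64 in SCs, 0.39 in endoneurial, -0.43 in epineurial, -0.19 in endothelial and 1.52 in mural cells and 0.46 in immune cells, where the median over all genes lay between 0.01 and 0.03. The share called among the members was thus at or near the background in SCs, where the largest changes were those of *Prnp* and *Lgi4*. For the class comparison, 8 of 8 genes tested were called in P1 SCs (71.1% of all genes), 6 higher and 2 lower, and 5 of 8 in P60 SCs (30.8%), all higher. Calls on members in another class came from tests that called 59.3% of genes in P1 endothelial, 61.3% in P1 epineurial and 58.3% in P60 perineurial cells. A member that failed the filter on low counts was not tested, and a member can pass through the group in which it is high.

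**Figure D2:**
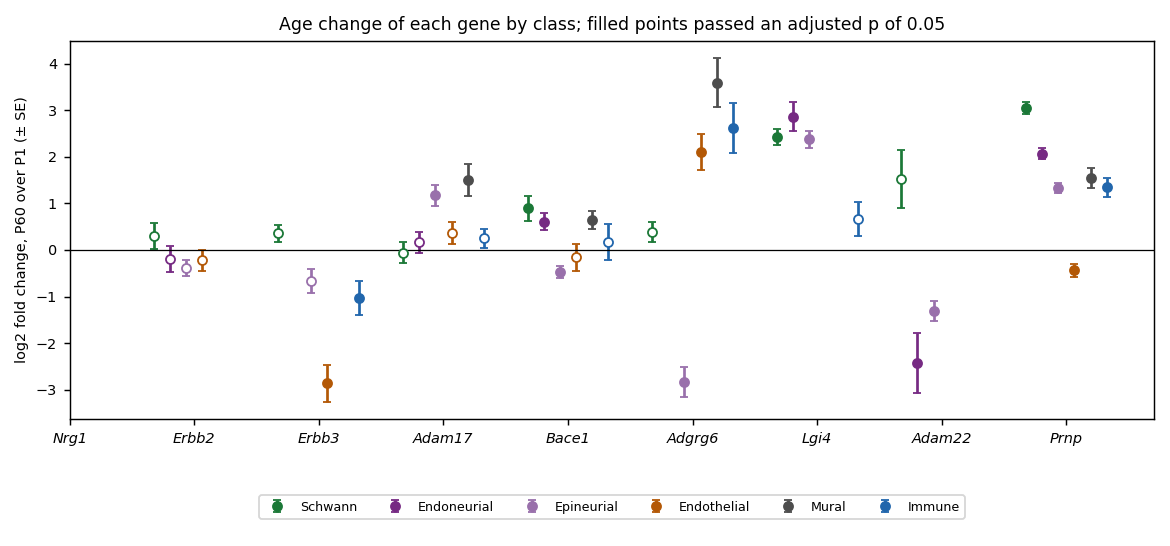
Log2 fold change between P60 and P1 of each gene in 6 cell classes, with the standard error of the fit as bars; filled points were called by edgeR and *Nrg1* was not tested. *Prnp* lies above 0 in all classes but endothelial cells, and *Adgrg6* is lower at P60 in epineurial and higher in endothelial, mural and immune cells.

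How the SC receptors differed between SC states was asked next. P1 SCs were clustered again, without the 9 genes, into immature (740 cells), promyelinating (578), myelinating (718) and proliferating (525) cells and a cluster of 534 cells led by *Cdkn1c* that took no state. The immature cluster was led by *Atf3*, *Smim5* and *Rxrg*, with the stress-response genes *Cyr61* and *Socs3* among its leading genes. The receptor genes *Erbb3* and *Adgrg6* and the ligand gene *Prnp* were higher in immature than in promyelinating and myelinating cells. *Adgrg6* had 49.9, 43.8 and 62.6 CPM in immature cells, 15.7, 20.7 and 15.6 in promyelinating cells and 27.4, 25.4 and 18.0 in myelinating cells. Immature cells did not overlap with either. The difference was 2.84-fold for promyelinating cells (log2 -1.51 ± 0.19, edgeR adjusted p = 9.22e-13) and 1.91-fold for myelinating cells (log2 -0.94 ± 0.17, edgeR adjusted p = 5.68e-07). *Prnp* had 327, 292 and 337 CPM in immature, 128, 136 and 133 in promyelinating and 127, 115 and 115 in myelinating cells. It was 2.26-fold lower in promyelinating (log2 -1.18 ± 0.08, edgeR adjusted p = 2.22e-37) and 2.30-fold lower in myelinating cells (log2 -1.20 ± 0.08, edgeR adjusted p = 4.36e-39).

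*Erbb3* had 126, 137 and 118 CPM in P1 immature, 85.7, 101 and 95.2 in promyelinating and 84.9, 81.5 and 75.5 in myelinating cells. These ranges left immature cells on top, by 1.26-fold over promyelinating cells (log2 -0.33 ± 0.10, edgeR adjusted p = 0.00450) and by 1.35-fold over myelinating cells (log2 -0.43 ± 0.10, edgeR adjusted p = 1.31e-04). The first call was lost with DESeq2 (log2 -0.34), with another normalization total in the clustering (log2 -0.18) and without P1 replicate 1 (log2 -0.28). *Lgi4* was lower in myelinating than in immature cells (38.4 ± 7.87 against 64.9 ± 10.4 CPM, log2 -0.54 ± 0.15, edgeR adjusted p = 9.36e-04), a call lost with DESeq2 (log2 -0.54, adjusted p = 0.0509) and without P1 replicate 3 (log2 -0.29). In promyelinating cells it had 42.0, 61.5 and 52.9 CPM against 68.8, 53.1 and 72.8 in immature cells, which overlapped and did not pass the test (log2 -0.22 ± 0.14, edgeR adjusted p = 0.225); the value was -0.06 without P1 replicate 1 and -0.46, then called, without P1 replicate 2. *Erbb2* did not pass either test (35.3 ± 5.50 CPM in immature, 29.5 ± 2.74 in promyelinating and 26.6 ± 3.05 in myelinating cells), nor did *Adam17* (47.9 ± 7.32, 53.3 ± 8.12 and 39.4 ± 2.21 CPM). *Bace1* had 16.98 ± 3.77 CPM in immature and 21.0 ± 2.53 in myelinating cells (log2 0.52 ± 0.23, edgeR adjusted p = 0.0572).

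In all, 3 of 7 members tested were called between promyelinating and immature cells (38.4% of all genes) and 4 of 7 between myelinating and immature cells (46.8%), each of them lower than in immature cells. Between proliferating and immature cells 0 of 7 were called by edgeR (29.2% of all genes), with 1 at an unadjusted p below 0.05 and 0 by DESeq2. *Adgrg6*, for example, stood at 52.5 ± 4.67 CPM in proliferating and 52.1 ± 9.59 CPM in immature cells (log2 0.04 ± 0.15). The myelinating state joined 3 clusters that differed in depth. The largest, of 479 cells with a median of 8244 UMIs, had 59.3 ± 9.55 CPM of *Erbb3*, and a shallow cluster of 209 cells, with a median of 2781 UMIs, had 216 ± 29.96. *Adgrg6* likewise had 17.2 ± 4.44 CPM in the first and 63.7 ± 23.5 in the second. Without the 2 shallow clusters, an alternative chosen after seeing the data, the difference between myelinating and immature cells was -0.85 for *Erbb3* and -1.37 for *Adgrg6* on the log2 scale, and *Erbb2* was then lower as well (log2 -0.53, edgeR adjusted p = 0.0220).

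**Figure D3:**
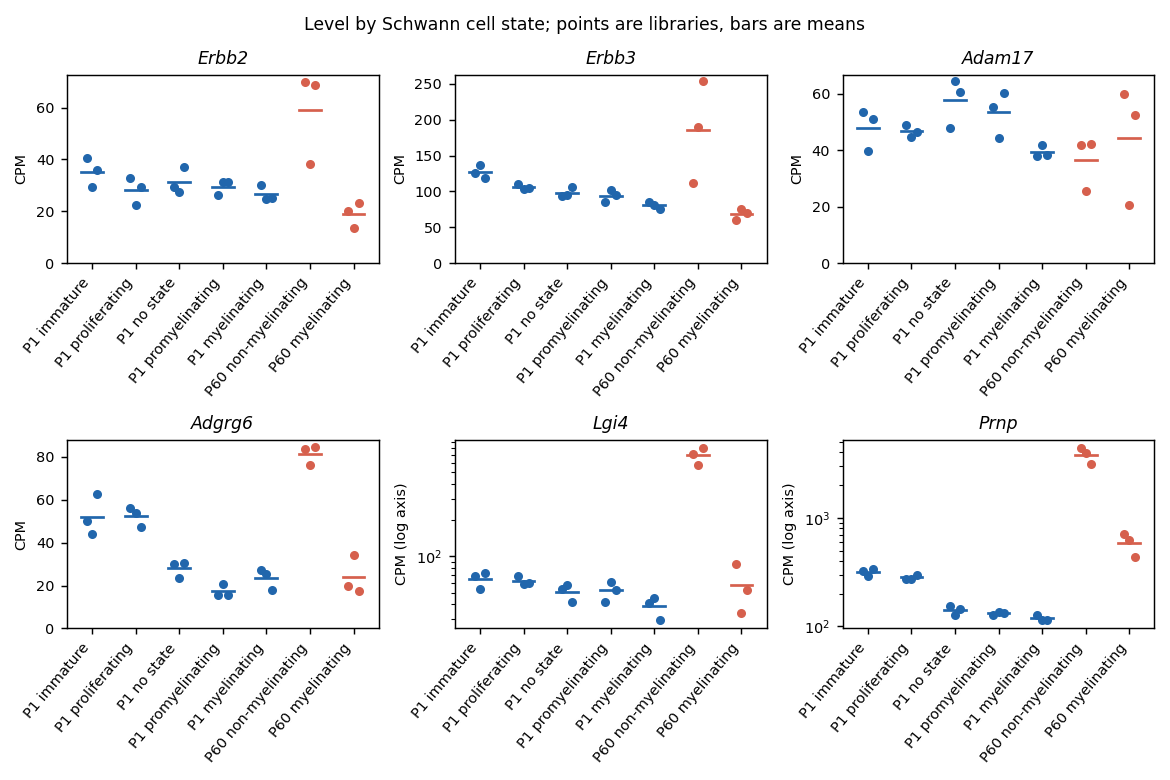
Level in CPM of 6 genes in Schwann cell states, with P1 libraries in blue, P60 libraries in red and bars at the means of 3 libraries. The axes of *Lgi4* and *Prnp* are logarithmic, and P60 proliferating cells are not shown. P60 non-myelinating cells carry the highest means of *Erbb2*, *Erbb3*, *Adgrg6*, *Lgi4* and *Prnp*, and 2 of the 3 *Lgi4* points of P60 myelinating cells lie in the range of the P1 states.

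At P60 the split was between non-myelinating cells (29, 31 and 99 cells in replicates 1, 2 and 3) and myelinating cells (40, 52 and 61 cells), beside 49 cells with proliferation markers and *Ngfr*. All 3 members that passed the filter on low counts were called, and all were lower in myelinating cells, where 30.7% of all genes tested were called. A member can pass this filter through the state in which it is high. *Adgrg6*, at up to 84.5 CPM in non-myelinating cells, failed it, and most myelinating values of *Lgi4* and *Erbb3* were no higher. The shared direction of the 3 calls is therefore not a result on the members as a set. *Lgi4* stood at 713, 572 and 792 CPM in non-myelinating and at 86.5, 34.0 and 52.3 CPM in myelinating cells, a 10.8-fold difference (log2 -3.43 ± 0.28, edgeR adjusted p = 1.76e-09). *Prnp* stood at 4362, 3964 and 3164 CPM in non-myelinating and at 712, 626 and 436 CPM in myelinating cells, a 5.85-fold difference (log2 -2.55 ± 0.22, edgeR adjusted p = 6.13e-09). The states were far apart for both genes. *Erbb3* stood at 112, 191 and 254 CPM in non-myelinating and at 59.9, 74.8 and 69.8 CPM in myelinating cells, a 2.42-fold difference (log2 -1.28 ± 0.35, edgeR adjusted p = 0.00656). These ranges did not overlap either, but the call was lost without P60 replicate 3 (log2 -0.97, edgeR adjusted p = 0.157) and with DESeq2 (log2 -1.23).

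*Adgrg6* and *Erbb2* showed no overlap between P60 non-myelinating and myelinating cells but failed the filter. *Adgrg6* had 83.9, 76.2 and 84.5 CPM in non-myelinating and 19.97, 34.0 and 17.4 CPM in myelinating cells, which are 6, 6 and 16 against 3, 5 and 3 UMIs. *Erbb2* had 69.9, 38.1 and 68.7 CPM against 19.97, 13.6 and 23.3 CPM, or 5, 3 and 13 against 2 to 4 UMIs. *Bace1* (37.2 ± 18.2 and 36.2 ± 9.76 CPM) and *Adam17* (36.5 ± 9.64 and 44.2 ± 21.0 CPM) overlapped between non-myelinating and myelinating cells. In the 49 P60 proliferating cells *Adam17* had 130, 77.4 and 76.1 CPM, above both, from 4, 4 and 5 UMIs. No test was run on that state. A P60 myelinating cluster of 62 cells was led by *Spp1* with the antigen-presentation genes *H2-DMa* and *Cd74* among its leading genes, and had *Erbb3* at 39.1 ± 12.8 CPM against 92.8 ± 6.16 in the other, of 91 cells. Set side by side without a test, *Lgi4* in myelinating cells was 38.4 ± 7.87 CPM at P1 and 57.6 ± 26.6 at P60, and in the not-myelinating states 64.9 ± 10.4 in P1 immature and 692 ± 112 in P60 non-myelinating cells. *Prnp* was 119 ± 6.88 CPM at P1 and 591 ± 141 at P60 in myelinating cells, with no overlap, and 318 ± 23.7 in immature and 3830 ± 611 in non-myelinating cells.

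Whether the age change of SCs differed from that of fibroblasts was tested over all fibroblast classes joined (5811 cells at P1, 7818 at P60). Of the 8 members tested 5 were called, where 28.6% of all genes tested were called. *Adgrg6* went from 33.6 ± 1.77 to 45.8 ± 1.90 CPM in SCs and from 2.84 ± 0.528 to 0.577 ± 0.110 CPM in fibroblasts, a difference of 2.48 ± 0.42 on the log2 scale (edgeR adjusted p = 1.18e-07). *Adam22* went from 2.38 ± 0.344 to 6.85 ± 2.72 CPM in SCs and from 13.6 ± 1.04 to 5.14 ± 1.28 in fibroblasts (difference 2.67 ± 0.78, edgeR adjusted p = 0.00376). *Prnp* rose in both, in fibroblasts from 63.5 ± 3.88 to 212 ± 21.8 CPM, and by 1.12 ± 0.07 more in SCs (edgeR adjusted p = 2.01e-39). *Adam17*, from 18.1 ± 0.543 to 32.2 ± 10.7 CPM in fibroblasts, differed by -1.17 ± 0.22 (edgeR adjusted p = 2.72e-06), and *Erbb3*, from 4.30 ± 0.797 to 2.73 ± 0.565 CPM in fibroblasts, by 0.75 ± 0.23 (edgeR adjusted p = 0.00753). In SCs alone, only *Prnp* of these genes passed the age test. *Erbb3* (edgeR adjusted p = 0.140), *Adgrg6* (0.190), *Adam22* (0.0646, with 7 UMIs at P60) and *Adam17* (0.869) did not. The fibroblast values of *Erbb3* and *Adgrg6* were low beside those of SCs, and the part of free SC RNA in them was not tested. The median difference over all genes was -0.11. *Lgi4* differed by 0.27 ± 0.17 (edgeR adjusted p = 0.263), which does not show that it rose alike. The *Erbb3* call was lost without P1 replicate 3 (log2 0.64), without P60 replicate 2 (log2 0.64) and without P60 replicate 3 (log2 0.61), and that of *Adam22* without P60 replicate 3 (log2 2.61).

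Depth differed between the ages, so the share of SCs with at least 1 UMI of a gene was taken after each cell had been thinned to 1500 UMIs, which left out 16 of 186 SCs of P60 replicate 3 and no other SC. Before thinning the median SC had 5609 to 6246 UMIs in the P1 libraries, and 1890 to 2632 in those of P60. *Prnp* was found in 25.5%, 24.4% and 26.3% of SCs at P1 and in 80%, 68% and 68.2% at P60. *Lgi4* was found in 7.64%, 7.30% and 7.77% at P1 and in 26.7%, 27% and 38.2% at P60. For both genes, and for *Bace1* (2.83 ± 0.666% and 5.16 ± 1.24%) and *Adgrg6* (5.77 ± 0.640% and 8.77 ± 1.65%), the ages did not overlap, and the exact two-sided permutation test gave p = 0.1, the smallest that 3 against 3 libraries allow, with 9 genes tested. For *Adgrg6* the ages overlapped when cells were thinned to 1000 UMIs (difference 1.10 percentage points in place of 3.00, exact permutation p = 0.3), and without thinning *Adgrg6* and *Bace1* were lower at P60 (differences -6.24 and -1.53). The share of *Erbb3* (15.2 ± 0.196% and 16.3 ± 7.10%) and that of *Erbb2* (4.91 ± 0.725% and 4.46 ± 3.12%) overlapped. Without thinning the shares were 62.5 ± 4.21% and 81.4 ± 4.26% for *Prnp*, 26.7 ± 1.36% and 41.9 ± 6.16% for *Lgi4*, and 44.3 ± 0.916% and 27.2 ± 3.33% for *Erbb3*. In immune cells, which should lack *Erbb3* and *Lgi4* and had a median of 5653 to 6908 UMIs at P1 and 3561 to 4013 at P60 (10 of 586 cells of P60 replicate 3 were left out), the thinned share was 0.774% and 0.510% for *Erbb3*, 0.923% and 0.336% for *Lgi4* and 1.70% and 3.66% for *Prnp* at P1 and P60. For *Adgrg6*, which was called higher at P60 in immune cells, it was 0.340% at P1 and 2.21% at P60.

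**Figure D4:**
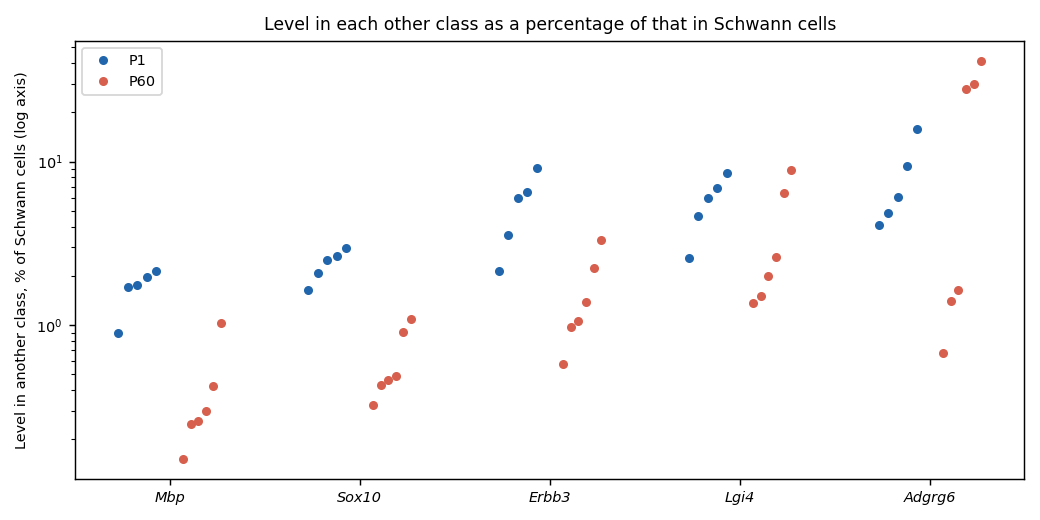
Level in each other cell class as a percentage of that in the Schwann cells of the same library, averaged over 3 libraries, on a log axis, for 2 Schwann cell genes (*Mbp* and *Sox10*) and 3 members, with P1 classes in blue and P60 classes in red. Both Schwann cell genes lie lower at P60 than at P1 in each class named at both ages, whereas 3 P60 classes of *Adgrg6* lie at 27.95% to 41.5%.

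The wider pathway was followed in 83 genes in 9 lists (named with the processing). In SCs 67 passed the filter, 16 were higher and 10 lower at P60, where 19.9% of all genes tested were higher and 18.3% lower, so the lists as a whole were called at about the background share (38.2%). Their median change was 0.04 where that of all genes was 0.01. Of the ErbB ligands other than *Nrg1*, 3 of 9 were tested and all rose, among them *Btc* (betacellulin, log2 2.82 ± 0.53, edgeR adjusted p = 6.45e-04) and *Tgfa* (log2 2.76 ± 0.56, edgeR adjusted p = 0.00113). A list gene can pass the filter on low counts through the age in which it is high. The shared direction of these 3 is therefore not a result on the ligands as a set. Of the Adgrg6 ligands, 4 of 5 fell and 0 rose in SCs, led by the laminin chains *Lamb1* (log2 -1.16 ± 0.17, edgeR adjusted p = 7.58e-05) and *Lama2* (log2 -0.93 ± 0.19, edgeR adjusted p = 0.00102). Basement-membrane laminin is another partner of Gpr126. This fall was not limited to SCs, since 5 of 5 of these genes fell in endothelial cells (18.9% of all genes were lower there), 4 of 5 in mural cells (15.8%) and 3 of 5 in immune cells (17%). Of the proteases and their regulators 2 of 11 tested rose and 0 fell, of the ErbB effectors 3 of 20 rose and 3 fell, and of the ErbB brakes 5 of 9 rose and 1 fell. Of the cyclic AMP effectors 1 of 10 fell, *Prkaca*, a catalytic subunit of protein kinase A (log2 -0.97 ± 0.25, edgeR adjusted p = 0.00609). Of the Lgi family 1 of 3 rose, *Adam11* (log2 3.24 ± 0.65, edgeR adjusted p = 0.00103), and of the myelination regulators 2 of 6 rose and 1 fell. Neither further ErbB receptor, *Egfr* or *Erbb4*, passed the filter in SCs. In the other classes the numbers higher and lower among the list genes tested were 14 and 23 of 67 in endoneurial (46.3% of all genes called), 15 and 14 of 72 in epineurial (47.1%), 6 and 17 of 66 in endothelial (40.1%), 9 and 10 of 63 in mural (33.9%) and 19 and 6 of 62 in immune cells (37.8%). No difference of the lists from the background was tested. *Timp3*, an inhibitor of ADAM17, was the called list gene with the largest rise in endoneurial (log2 4.75 ± 0.17), epineurial (log2 2.57 ± 0.16) and immune cells (log2 2.69 ± 0.16).

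Other genes of the lists differed between classes and states. *Adam23* was higher in SCs than in the other classes at P1 (log2 4.22 ± 0.10, edgeR adjusted p = 2.57e-34) and at P60 (log2 6.17 ± 0.37, edgeR adjusted p = 1.08e-14), as was *Lgi1* (log2 3.19 ± 0.09 and 5.62 ± 0.34, edgeR adjusted p = 1.56e-31 and 1.69e-14). Of the Lgi family, 2 of 5 were higher and 1 lower in P1 SCs, where 36.6% of all genes were higher and 34.6% lower, and 3 of 5 were higher in P60 SCs, where 15.1% were. *Lgi1* was lower in promyelinating (log2 -2.60 ± 0.13, edgeR adjusted p = 3.47e-55) and myelinating cells (log2 -3.40 ± 0.14, edgeR adjusted p = 1.15e-67) than in immature cells at P1, and *Adam23* was lower in myelinating than in non-myelinating cells at P60 (log2 -2.73 ± 0.45, edgeR adjusted p = 4.64e-05). *Egr2*, the transcription factor that drives myelin genes, was higher in promyelinating than in immature cells (log2 1.31 ± 0.08, edgeR adjusted p = 1.10e-40) and in P60 myelinating than in non-myelinating cells (log2 3.86 ± 0.42, edgeR adjusted p = 1.56e-07). *Bace2* was higher in P1 promyelinating (log2 1.98 ± 0.29, edgeR adjusted p = 9.49e-10) and myelinating cells (log2 3.51 ± 0.22, edgeR adjusted p = 4.32e-39) than in immature cells. The adaptor gene *Shc1* was higher in both as well (log2 2.28 ± 0.20 and 1.68 ± 0.22, edgeR adjusted p = 9.46e-24 and 1.68e-12). *Hbegf*, an ErbB ligand, was lower in promyelinating than in immature cells (log2 -2.78 ± 0.18, edgeR adjusted p = 3.35e-39). Over all lists 13 genes were higher and 23 lower of 62 tested in promyelinating against immature cells (38.4% of all genes called), 21 and 18 of 62 in myelinating against immature cells (46.8%), 4 and 12 of 62 in proliferating against immature cells (29.2%), and 4 and 6 of 29 in P60 myelinating against non-myelinating cells (30.7%).

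Genes whose pattern over the 39 sums of a library and class was most like that of a member were found among about 6375 genes with a mean of at least 20 CPM. Their Pearson r on log2(CPM + 10) is a description, since the sums share libraries and cell classes. *Erbb3* was most like the SC genes *Sox10* (r = 0.98) and *Ttyh1* (0.98), and *Lgi4* was most like *Chl1* (0.94), *Cyp2j9* (0.93) and *Gpr37l1* (0.93). *Erbb2* was most like *Tead1* (0.91), *Gulp1* (0.91) and *Scd2* (0.91), and *Bace1* like *Pard3b* (0.90), *Hoxc6* (0.88) and *Afap1* (0.88). *Adgrg6* was nearest to *Rasal2* (0.87), *Prnp* to *S100a16* (0.87), *Adam17* to *Rnf130* (0.83) and *Adam22* to *Angptl2* (0.82). The counts of *Nrg1* were too sparse for its nearest gene to be of use.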

How the data were processed

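For each of 6 libraries the authors deposited a matrix of raw UMI counts per gene and barcode, made with Cell Ranger 2.0.2 and aligned to GRCm38.p5 per the submitters' processing notes, with no normalization and no pooling. Cells with 500 to 5000 genes were log-normalized to a total of 10000 and clustered per age in Seurat 5.3.0 (R 4.3.3, 10 principal components, 30 neighbors, resolution 0.5 at P1 and 0.4 at P60, Schwann cells again at 0.5). The 9 members and the pathway lists were left out of the variable genes. Clusters were named where at least 3 fixed markers stood out, and no doublets were removed beyond the limit on genes. Classes with markers of a second class (412 cells at P1, 245 at P60), Schwann sub-clusters with at least 4 markers of another class (40 and 80 cells) and 1 unnamed P1 cluster (161 cells) entered no class. UMI counts were summed per library and class (at least 20 cells) or state (at least 10 cells).

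Sums were tested with edgeR 4.0.16 (TMM, filterByExpr, quasi-likelihood test, two-sided, Benjamini-Hochberg over all genes tested). Classes or states of 1 age were compared with the library as a block, the ages without one, and the age change of Schwann cells against that of fibroblasts by an interaction term. Shares were compared by exact permutation. DESeq2 1.42.0, library-size scaling, no filter, other clusterings, a mitochondrial limit of 10%, removal of cells with markers of a second class, 50 cells per library and class, and leaving out each library were the alternatives. Scripts were tested on simulated data. Figures were drawn with matplotlib 3.10.9. Gene positions are those of GENCODE M21. The members and lists were chosen with earlier results of these data known. All members were reported; of the lists, up to 3 called genes with the largest log2 change in each direction were eligible for naming, and for each member up to 3 genes of like pattern; some of these genes are not reported here. A cell list of the study gives P60 replicate 3 a number other than its label, and the labels were followed. The lists were ErbB ligands (*Nrg2*, *Nrg3*, *Nrg4*, *Btc*, *Hbegf*, *Egf*, *Tgfa*, *Areg*, *Ereg*), ErbB receptors (*Egfr*, *Erbb4*), proteases and their regulators (12 genes, among them *Adam10*, *Adam9*, *Adam12*, *Adam19*, *Bace2*, *Rhbdf1*, *Rhbdf2* and *Timp3*), ErbB effectors (22 genes, among them *Shc1*, *Rac1* and the Akt and Mapk genes), ErbB brakes (10 genes, among them *Errfi1*, *Lrig1*, *Rnf41*, *Cblb*, *Dusp6*, *Spry2* and *Ddit4*), Adgrg6 ligands (*Col4a1*, *Col4a2*, *Lama2*, *Lamb1*, *Lamc1*), cyclic AMP effectors (12 genes of the Gs, adenylyl cyclase and protein kinase A pathway), the Lgi family (*Lgi1*, *Lgi2*, *Lgi3*, *Adam11*, *Adam23*) and myelination regulators (*Egr2*, *Pou3f2*, *Nab1*, *Nab2*, *Yy1*, *Zeb2*).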

Additional observations from a re-analysis of the deposited data

Results flagged for a closer look

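Between Schwann cells and fibroblasts, 5 members had age changes that differed by the interaction test, of 8 tested, where 28.6% of all genes were called. The change of Schwann cells minus that of fibroblasts was 0.75 for *Erbb3*, -1.17 for *Adam17*, 2.48 for *Adgrg6*, 2.67 for *Adam22* and 1.12 for *Prnp* on the log2 scale. In Schwann cells alone, only *Prnp* of these genes passed the age test, while *Erbb3*, *Adam17*, *Adgrg6* and *Adam22* did not. The part of free RNA in the low fibroblast values of *Erbb3* and *Adgrg6* was not tested. The call of *Erbb3* was lost on removal of P1 replicate 3 (0.64), of P60 replicate 2 (0.64) and of P60 replicate 3 (0.61), and that of *Adam22* without P60 replicate 3 (2.61). No member was tested for a library far from the rest of its group, since the groups held 3 libraries each.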

How the results depend on the processing

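No called log2 value of a member changed direction under any setting. Over the settings, 533 values of the age comparison stayed on their side of the threshold, 31 lost and 4 gained a call; for the class comparison these numbers were 235, 3 and 2, for the states 296, 7 and 9, and for the interaction 51, 4 and 1. With 50 cells per library and class, which leaves fewer counts, endoneurial cells had 1 member called, epineurial cells 2, mural cells 1, and endothelial and immune cells 0. Leaving out 1 library gave 2 to 4 members called in endoneurial cells (2 without P1 replicate 1), and 3 to 5 for the interaction (3 without P60 replicate 3). Between proliferating and immature cells 2 members were called with library-size scaling and 1 each with the members kept in the clustering, with a normalization total of 100000 and with a resolution 1.5 times as high; the cause was not tested. Without thinning, the share of Schwann cells with a UMI changed between P1 and P60 by -0.428 points for *Nrg1*, -8.00 for *Erbb2*, -17.0 for *Erbb3*, -14.1 for *Adam17*, -1.53 for *Bace1*, -6.24 for *Adgrg6*, 15.2 for *Lgi4* and 18.9 for *Prnp*, of which *Bace1* and *Adgrg6* went the opposite way to the thinned values of 2.33 and 3.00; P60 cells were shallower. Thinned to 1000 UMIs, *Adgrg6* differed by 1.10 points.

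The number of all genes called in Schwann cells between the ages was 4291, 2650 to 2736 without a P1 library and 1156 with 50 cells. With 50 cells it was 1535 in place of 4996 in endoneurial, 1040 of 5765 in epineurial, 1230 of 4399 in endothelial, 1009 of 2860 in mural and 649 of 3765 in immune cells. DESeq2 called 2260 in place of 3577 genes between promyelinating and immature, 1410 of 2716 between proliferating and immature and 521 of 828 between the P60 states, where 524 were called without P60 replicate 3. Library-size scaling moved the median of all genes by -0.12 in mural cells, 0.28 in P60 Schwann cells against the other classes, -0.23 between P1 myelinating and immature cells, -0.21 between the P60 states and 0.27 for the interaction; DESeq2 moved it by 0.11 in P60 Schwann cells. Library-size scaling moved the share of higher among called genes from 48.9% to 68.2%, from 49.4% to 29.2%, from 48.3% to 36.1% and from 41.6% to 61.3% in the last 4 of these, and from 48.7% to 37.9% between promyelinating and immature cells. Same-numbered libraries of the 2 ages deviated together with correlations of -0.07 to 0.08, so the numbers were taken not to pair them; with the replicate number as a block, *Bace1* in Schwann cells (log2 0.87) and *Erbb3* in immune cells (log2 -1.07) lost their call. Without the library block no call between classes or states changed. No age comparison of perineurial cells was made, since no P1 cluster took that name. The depth of P60 Schwann cells limits what the P60 states can show.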

Other observations

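A P1 cluster of 313 cells with Schwann and other markers together, a median of 2696 UMIs and 26.8% mitochondrial counts had *Erbb3* at 249 ± 50.9 CPM, and a shallow P1 Schwann cluster of 233 cells with 16.4% mitochondrial counts had 219 ± 8.995. A P60 cluster of 84 cells with markers of more than 1 class, led by haemoglobin genes, had *Adgrg6* at 78.8 ± 35.0 CPM. A shallow P1 fibroblast cluster of 706 cells with 19.8% mitochondrial counts had *Adam22* at 37.7 ± 1.38 CPM. The shallow Schwann cluster entered the Schwann class, and the shallow fibroblast cluster entered the joined fibroblasts of the interaction test, where *Adam22* was called; the clusters of 313 and 84 cells entered no test.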
